A study of Mus musculus with 6 samples.

Results

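The 35 genes described here, which T lymphocytes use, were measured in the lungs of wild type (WT) mice and of mice that lack part of Zpbp2 (KO). They were chosen by symbol, and all 35 were found among the 47069 genes in the table of read counts and among the 17037 genes that passed the filter on low counts. RNA sequencing was done on 1 whole lung library per mouse, from 3 WT mice (WT4, WT5 and WT6) and 3 KO mice (KO4, KO5 and KO6), all collected at ZT10, which is 10 h after lights on. WT mice were C57BL/6J. KO mice were of the B6.129S7-Zpbp2tmZuk/Mmjax strain, in which exons 1 to 3 at the 5' end of Zpbp2 are deleted on the same C57BL/6J background, so that the deletion was in every cell of the body. Both genotypes came from the same colony and were adult, and the sex of each mouse was not given. Libraries held 19981428 to 46796908 counted reads, and KO5 was the deepest. Zpbp2 itself, whose product is known from sperm, had 1, 2 and 2 reads in the WT libraries and 0 in each KO library, too few to check the labels.

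A T cell recognises a peptide held by an MHC molecule through its receptor, a pair of variable chains that pass the signal on through the CD3 and zeta chains. The coreceptors CD4 and CD8 bind class II and class I MHC molecules and bring the kinase Lck, and Zap70 and the adaptor Lat carry the signal inwards. CD28 and its relatives then raise or restrain the response. In the lung, T cells lie scattered in the tissue, in the vessels and, in some animals, in lymphoid aggregates with B cells around the airways. In RNA from whole lung, fewer cells of a type and less RNA per cell cannot be told apart.

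The T cell genes were on average higher in KO lungs, to a very different degree in each of the 3 mice. All 35 had a log2 fold change above 0 in KO against WT, with a median of 0.80 (range 0.06 to 1.89), where the median of all genes tested was 0.0030. In 23 of the 35 every KO mouse was above every WT mouse, against 17.0% of all genes tested, and in none was every KO mouse below. Only 1 of the 35, Sh2d1a, passed the test across all genes (edgeR quasi-likelihood test, adjusted p at most 0.05), where 3.72% of all genes tested passed as higher in KO and 2.67% as lower, and none of the 35 was called lower. At an unadjusted p of at most 0.05, 25 of the 35 were higher and 0 were lower. The share of all genes at that unadjusted threshold was not computed, so this count and those of the lists below have no background.

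The height in KO mice came mostly from 1 animal. Relative to the mean of the WT mice, the median of the 35 genes stood at 0.09, -0.06 and 0.00 on the log2 scale in WT4, WT5 and WT6, and at 0.24 in KO4, 1.36 in KO5 and 0.47 in KO6. KO5 had the highest value of all 6 mice in 33 of the 35 genes. KO4 was above the WT range in 24 genes, inside it in 6 and below it in 5, and KO6 was above it in 28, inside it in 6 and below it in 1. Without KO5 the median log2 fold change was 0.41, with 30 of 35 values above 0, and Sh2d1a alone was called, where 3.49% of all genes tested were called higher. Without KO4 the median was 1.02 and 12 of the 35 were called, where 4.55% of all genes were. Leaving out KO6 gave 0 called members, and so did leaving out each WT mouse in turn; without WT5 the test called 1 gene among all those tested. DESeq2, with all 6 mice, called 17 of the 35, where 6.51% of all genes tested were called higher, the edgeR exact test 7, where 5.53% were, and limma-voom 1, where 3.15% were.

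**Figure D1:**
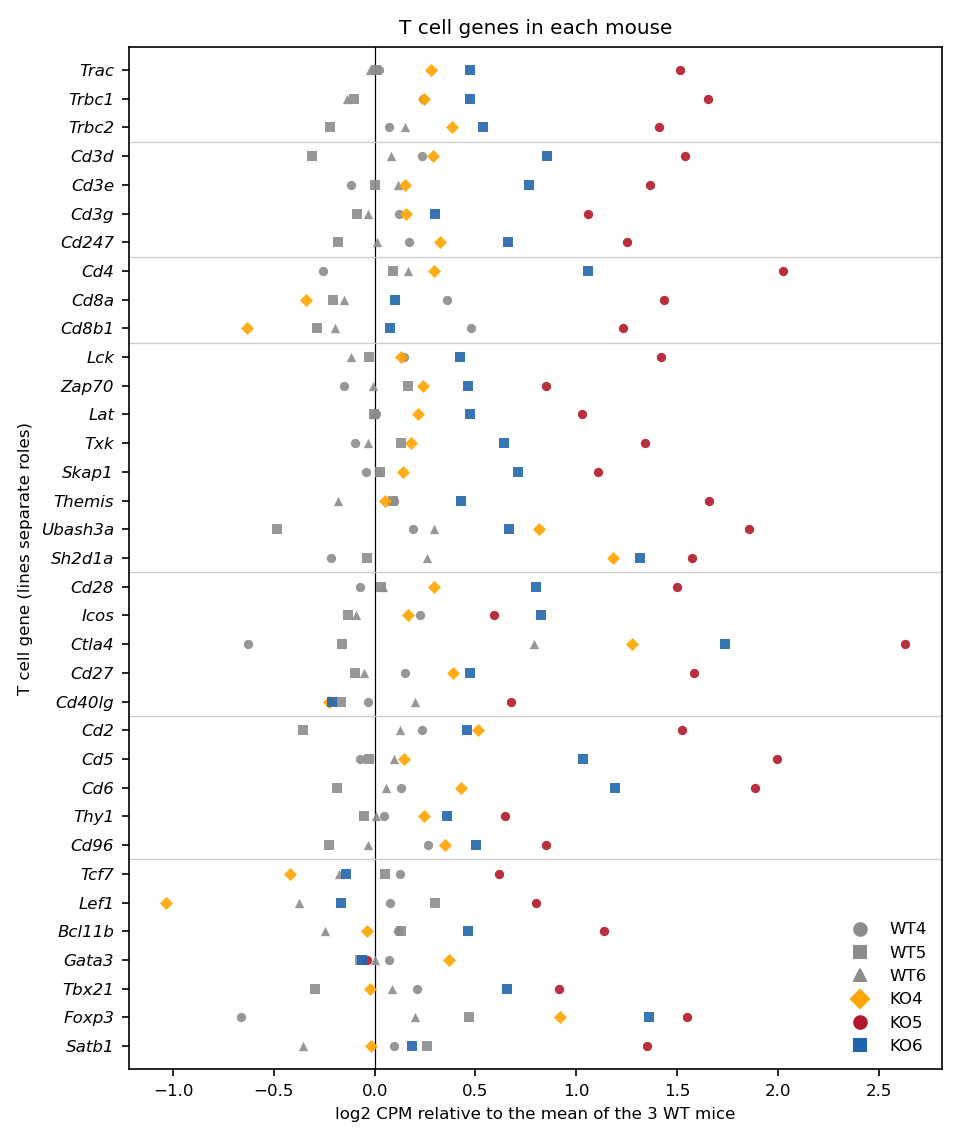
Each of the 35 T cell genes (rows, grouped by role) in each of the 6 mice, as log2 CPM (reads scaled to the size of the library) relative to the mean of the 3 WT mice. Grey symbols are WT mice and coloured symbols KO mice, with 1 library per symbol. KO5 was the highest mouse in 33 genes, and KO4 was inside the WT range in 6 of the 35 and below it in 5.

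Genes of B cells and of lymphoid tissue moved with the T cell genes and had the same order of KO mice. The summed level of the 10 B cell markers was 146, 139 and 154 CPM in the WT mice. It was 259, 1096 and 312 CPM in KO4, KO5 and KO6. Every KO mouse was above every WT mouse in each of the 10, where this held for 17.0% of all genes tested. None of these markers was at 0 in any mouse. Their median log2 fold change was 1.91, with 0 called by the quasi-likelihood test and by limma-voom with all 6 mice, 10 at an unadjusted p of at most 0.05, 10 by the edgeR exact test and 8 by DESeq2. Without KO5 the quasi-likelihood test called 8, at a median of 0.95, where 3.49% of all genes tested were called higher. The list of lymphoid stroma and high endothelial venule genes summed to 12.3, 14.3 and 14.9 CPM in WT and to 24.0, 102 and 36.5 CPM in KO mice. Cr2 is in both this list and the B cell list, so the sums of these lists share its reads. For that list 7 rows were found, which hold fewer than 7 genes because Ccl21a had more than 1 row, and 3 were tested. Glycam1, a secreted glycoprotein of high endothelial venules, was called by the quasi-likelihood test (log2 fold change 4.60, adjusted p = 0.0407). It was too low to test without KO5 and was not called by limma-voom. Ccl19 and Ccl21a had 0 reads in every mouse, and whether their reads were lost in mapping or counting was not tested. The 35 T cell genes summed to 241 to 266 CPM in WT mice and to 271, 553 and 327 CPM in KO4, KO5 and KO6. The part of B cells and lymphoid tissue in these values was not tested.

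**Figure D2:**
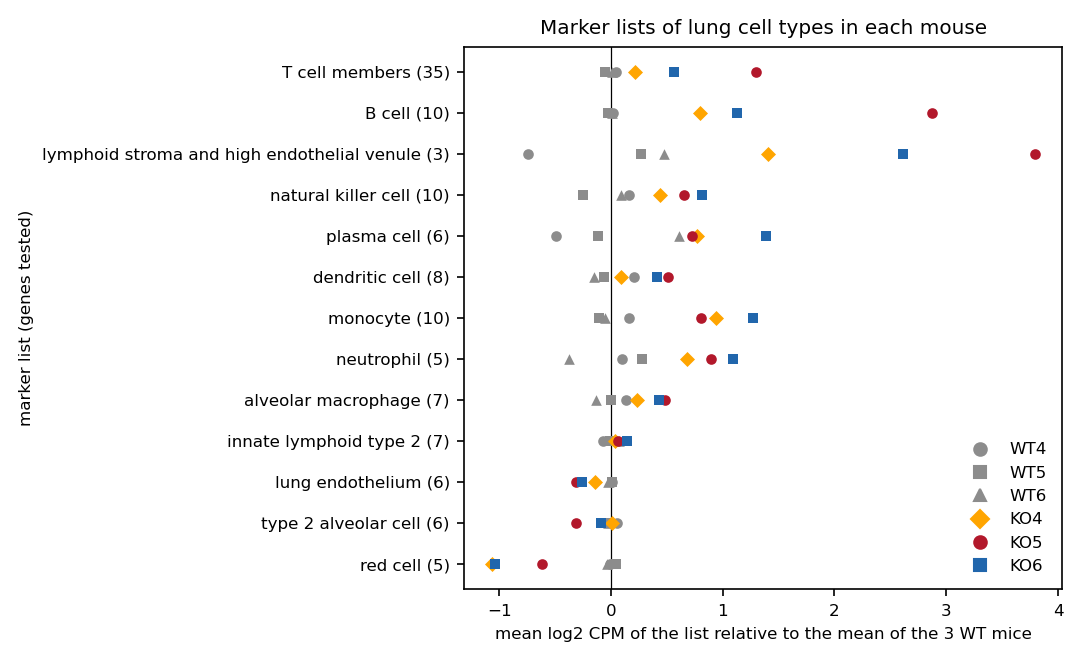
Mean log2 CPM of the tested genes of each marker list relative to the mean of the 3 WT mice, with the number of genes tested in parentheses and 1 symbol per mouse. KO5 is the farthest to the right for the T cell, B cell and lymphoid stroma lists, and by less for the dendritic cell and alveolar macrophage lists. KO6 is the farthest for monocyte, neutrophil and natural killer cell lists, and the red cell list lies below the WT mice in every KO mouse.

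Other lists moved in several ways among the KO mice. Their called genes are read against all genes tested, of which 3.72% were called higher and 2.67% lower with all 6 mice. The dendritic cell and alveolar macrophage lists had the order of the T cell genes, with smaller differences. Relative to WT, their mean log2 CPM in KO4, KO5 and KO6 was 0.09, 0.51 and 0.41 for dendritic cells. For alveolar macrophages it was 0.23, 0.49 and 0.43. Natural killer cell markers, some of which share genes of the T cell program, summed to 44.6 to 61.0 CPM in WT and to 72.0, 80.6 and 93.0 CPM in KO4, KO5 and KO6, with 2 of 10 called higher (Klrk1 and Ncr1). DESeq2 called 6 of these markers, the exact test 3 and limma-voom 1, and 8 were higher at an unadjusted p of at most 0.05. In 7 of them every KO mouse was above every WT mouse, where this held for 17.0% of all genes tested. The monocyte list had 8 of 10 genes called higher and the neutrophil list 3 of 5, with median log2 fold changes of 0.91 and 1.01. All 5 red cell genes were called lower, with a median of -0.89. The list for type 2 alveolar cells, which make surfactant, had 0 of 6 called by edgeR and 1 lower by DESeq2, 1 lower at an unadjusted p of at most 0.05, and a median of -0.14. Lung endothelium had 1 of 6 called lower (Cldn5, not called without KO5), alveolar macrophages 1 of 7 called higher (Marco), and type 2 innate lymphoid cells 1 called higher (Il9r) and 1 lower (Areg) of 7. Of 8 dendritic cell markers 3 were called higher (Xcr1, Itgax and Flt3) and 1 lower (Zbtb46), of which Zbtb46 alone was called without KO5, and of 6 plasma cell markers 0 were called by the quasi-likelihood test or limma-voom, 1 by DESeq2, 2 by the exact test and 4 were higher at an unadjusted p of at most 0.05, at a median of 1.26. The part of these cell types in the T cell values was not tested.

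The constant regions of the receptor, which every alpha-beta T cell carries, lay above the WT range in all of the KO mice. Trac, the alpha constant region, was at 5.23, 5.18 and 5.08 CPM in the WT mice and at 6.26 in KO4, 14.8 in KO5 and 7.16 in KO6. WT mice differed from one another by little, KO4 and KO6 lay just above them and KO5 stood apart at 2.87 times the WT mean. Its log2 fold change was 0.88 ± 0.32 (SE; adjusted p = 0.143), and 0.37 ± 0.13 without KO5. For Trbc1 and Trbc2, the 2 beta constant regions, the log2 fold changes were 0.94 ± 0.37 and 0.86 ± 0.28 (adjusted p = 0.165 and 0.114). They lie within 10.1 kb of each other on chromosome 6 (41538218 to 41548352, GRCm38) and are nearly identical, so that the division of reads between them is uncertain; Trbc1 had 0.656 to 0.899 reads for each Trbc2 read in WT mice and 0.727 to 0.946 in KO mice.

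The CD3 chains and the zeta chain carry the signalling motifs of the receptor, and all of them were above the WT range in each KO mouse. Cd3d was at 4.43, 3.02 and 3.98 CPM in the WT mice and at 4.60, 11.0 and 6.81 CPM in KO4, KO5 and KO6. KO4 exceeded the highest WT mouse by a small margin and KO6 by a larger one. Its log2 fold change was 0.98 ± 0.32 (adjusted p = 0.114), and those of Cd3e, Cd3g and Cd247 (zeta) were 0.85 ± 0.29, 0.57 ± 0.24 and 0.80 ± 0.24 (adjusted p = 0.121, 0.193 and 0.0959). Without KO5 these 4 genes had log2 fold changes of 0.22 to 0.57 and none was called. Counted together, the 4 chains had 568, 409 and 679 reads in the WT libraries (22.9, 19.6 and 22.0 CPM) and 510, 2485 and 669 in KO4, KO5 and KO6 (24.9, 52.1 and 33.0 CPM). Cd247 shares 3007 exon bases with Pou2f1 on the opposite strand. Because the strand setting of the counting was not given, reads from those bases may have been added to the count of Cd247 or lost from it. Of the 35 T cell genes, 12 share exon bases with another gene, 9 of them on the opposite strand.

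Cd3g, Cd3d and Cd3e lie side by side within 40.1 kb of chromosome 9 (44969572 to 45009627, GRCm38), and the starts of Cd3g and Cd3d face away from each other, 1354 bases apart. Their promoters and that of Cd247 are shown because these 4 genes build 1 complex and had the same order of KO mice. Each sequence runs 5' to 3' on the gene's own strand, from 250 bases before to 50 bases after the start in RefSeq (GRCm38.p6), with matches to any of the motifs described after them, on either strand, in capitals. The windows are chr9:44981536-44981835 (plus strand) for Cd3d, chr9:44980382-44980681 (minus strand) for Cd3g, chr9:45009562-45009861 (minus strand) for Cd3e and chr1:165788431-165788730 (plus strand) for Cd247.
Cd3d: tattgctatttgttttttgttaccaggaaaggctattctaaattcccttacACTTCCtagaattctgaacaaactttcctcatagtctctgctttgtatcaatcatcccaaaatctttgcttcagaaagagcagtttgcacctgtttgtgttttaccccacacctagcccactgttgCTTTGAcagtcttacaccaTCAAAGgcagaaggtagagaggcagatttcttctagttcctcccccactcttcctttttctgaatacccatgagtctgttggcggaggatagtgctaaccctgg
Cd3g: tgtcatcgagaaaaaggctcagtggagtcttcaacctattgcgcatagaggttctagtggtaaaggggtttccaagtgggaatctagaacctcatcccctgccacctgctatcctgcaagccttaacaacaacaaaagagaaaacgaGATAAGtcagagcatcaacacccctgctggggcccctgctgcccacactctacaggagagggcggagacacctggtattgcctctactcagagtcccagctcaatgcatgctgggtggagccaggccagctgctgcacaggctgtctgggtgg
Cd3e: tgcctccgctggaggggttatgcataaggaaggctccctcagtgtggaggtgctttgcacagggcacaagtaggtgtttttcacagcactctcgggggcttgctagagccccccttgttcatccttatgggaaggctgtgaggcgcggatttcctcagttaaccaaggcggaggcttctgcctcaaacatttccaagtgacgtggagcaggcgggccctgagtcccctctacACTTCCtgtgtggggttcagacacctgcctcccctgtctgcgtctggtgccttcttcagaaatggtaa
Cd247: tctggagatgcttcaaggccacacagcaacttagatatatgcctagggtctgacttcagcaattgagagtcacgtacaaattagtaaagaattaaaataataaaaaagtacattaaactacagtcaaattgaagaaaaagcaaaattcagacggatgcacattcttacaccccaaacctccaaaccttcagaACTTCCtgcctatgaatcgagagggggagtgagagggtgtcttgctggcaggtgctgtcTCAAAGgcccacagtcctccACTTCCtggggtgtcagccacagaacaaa
GGAAGT, a core that factors of the Ets family bind, was present in the windows of Cd3d, Cd3e and Cd247 and not in that of Cd3g, in which only GATAAG, a core bound by Gata factors, was found. CTTTGA, a core of Tcf7 and Lef1 sites, was present in Cd3d and Cd247. RefSeq windows were matched for 22 of the 35 genes (36 windows, since some genes have several starts). Over these windows GGAAGT was present in 47.2%, against 23.8% of all 32851 promoter windows, CTTTGA in 22.2% against 16.0%, GATAAG in 5.56% against 7.44%, and TGTGGT, a core of Runx sites, in 13.9% against 16.8%. None of the 4 motifs is contained in another, and a match is a description of the sequence only.

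Among the coreceptors, Cd4 and the genes of CD8 were not alike in the KO mice. Cd4 was at 5.56, 7.09 and 7.47 CPM in the WT mice and at 8.16, 27.1 and 13.9 CPM in KO4, KO5 and KO6. Each KO mouse was above the WT range, KO4 by the least and KO5 by the most. The log2 fold change of Cd4 was 1.30 ± 0.40 (adjusted p = 0.101), and 0.71 ± 0.24 without KO5. Cd8a, the alpha chain of CD8, was at 7.97, 5.37 and 5.60 CPM in WT and at 4.89, 16.8 and 6.67 CPM in the KO mice, so that KO4 was the lowest of the 6 mice and KO5 the highest. Cd8b1, the beta chain, was at 5.64, 3.31 and 3.53 CPM in WT and at 2.59, 9.50 and 4.25 CPM in the KO mice, in the same order. Their log2 fold changes were 0.61 ± 0.44 and 0.42 ± 0.46 (adjusted p = 0.439 and 0.619), and both were negative without KO5, at -0.13 and -0.29.

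The balance of the coreceptors can be read within each library, where depth cancels. Cd4 had 0.697, 1.32 and 1.34 reads for each Cd8a read in WT4, WT5 and WT6, and 1.67, 1.61 and 2.08 in KO4, KO5 and KO6. All KO mice were above all WT mice, and WT4 was low among the WT mice. As a share of the sum of Cd4 and Cd8a reads, Cd4 had 41.1% in WT4 (95% Clopper-Pearson interval 35.8 to 46.5), 56.9% in WT5 (50.7 to 63.0) and 57.2% in WT6 (52.2 to 62.1). In the KO mice the share was 62.5% in KO4 (56.4 to 68.4), 61.7% in KO5 (59.6 to 63.8) and 67.5% in KO6 (62.8 to 72.0). These intervals cover counting error only, and the interval of each KO mouse overlapped with that of WT5. With 3 mice against 3 an exact two-sided permutation test cannot go below p = 0.10, so no p is given. Cd8a and Cd8b1 lie within 56.4 kb of each other on chromosome 6 (71322788 to 71379173), and the reads of Cd8a for each Cd8b1 read overlapped between the groups (1.41 to 1.62 in WT, 1.57 to 1.89 in KO).

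Sh2d1a was the 1 T cell gene that rose by the test across all genes. It encodes SAP, an adaptor that couples receptors of the SLAM family to the kinase Fyn and that T follicular helper cells need to help B cells. Which cells of the lung made the Sh2d1a RNA was not tested. Its level was 0.805, 0.910 and 1.13 CPM in the WT mice (20, 19 and 35 reads) and 2.15, 2.85 and 2.37 CPM in KO4, KO5 and KO6 (44, 136 and 48 reads). The groups were well apart, and KO5 did not stand out from the other KO mice as it did for most of the list. The log2 fold change was 1.37 ± 0.21 (adjusted p = 0.0211), and 1.23 ± 0.23 without KO5 (adjusted p = 0.0336). Over the fits that left out 1 mouse each, the log2 fold change ran from 1.23 to 1.52 and the adjusted p from 0.0264 to 0.109, and the gene was called in 2 of 6, those without KO4 and without KO5. Sh2d1a lies on chromosome X (42502453 to 42529330, plus strand, GRCm38) and shares 1465 exon bases with Tenm1 on the opposite strand, which had at most 2 reads in any library.

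The other genes of proximal signalling were higher in KO mice on average but did not pass the test. Lck, the kinase that starts the signal, was at 13.5, 12.0 and 11.3 CPM in WT and at 13.3, 32.7 and 16.4 CPM in KO4, KO5 and KO6, and KO4 was inside the WT range. Its log2 fold change was 0.78 ± 0.32 (adjusted p = 0.177). Zap70, the kinase that docks on phosphorylated CD3 and zeta chains, was at 7.69, 9.58 and 8.51 CPM in WT and at 10.1, 15.5 and 11.8 CPM in KO mice, with no overlap and a log2 fold change of 0.54 ± 0.17 (adjusted p = 0.108). Lat, the adaptor on which the signal branches, was at 10.5, 10.4 and 10.5 CPM in WT and at 12.2, 21.4 and 14.6 CPM in KO mice, again with no overlap, and its log2 fold change was 0.62 ± 0.20 (adjusted p = 0.109). WT mice lay within a narrow band for Lat, with an SD of 0.0514 CPM. Txk, a kinase of the Tec family, Skap1, an adaptor in the path to integrins, and Ubash3a, a negative regulator of receptor signalling, had log2 fold changes of 0.82 ± 0.29, 0.72 ± 0.24 and 1.21 ± 0.38 with no overlap of the groups (adjusted p = 0.136, 0.116 and 0.106). Themis, which T cells need for thymic selection, was inside the WT range in KO4 and had a log2 fold change of 0.91 ± 0.41 (adjusted p = 0.215).

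The receptors that restrain or raise the response held the largest difference on the list. Ctla4, which takes the ligands of CD28 and restrains T cells, was at 0.483, 0.671 and 1.33 CPM in WT (12, 14 and 41 reads) and at 1.86, 4.80 and 2.57 CPM in KO4, KO5 and KO6 (38, 229 and 52 reads). All KO mice were above all WT mice, although WT6 was close to KO4. The log2 fold change was 1.89 ± 0.47 (adjusted p = 0.0604), and 1.37 ± 0.41 without KO5 (adjusted p = 0.108). Cd28, the main costimulatory receptor, was at 4.55, 4.89 and 4.92 CPM in WT and at 5.87, 13.6 and 8.34 CPM in KO mice, with a log2 fold change of 0.97 ± 0.29 (adjusted p = 0.093). Cd28, Ctla4 and Icos share a cluster of 283.5 kb on chromosome 1 (60716800 to 61000320), and their values did not move alike. Icos, an inducible costimulator, was the 1 gene that was highest in KO6, with 4.43, 3.45 and 3.56 CPM in WT and 4.25, 5.73 and 6.72 CPM in KO4, KO5 and KO6. Its log2 fold change was 0.55 ± 0.20 (adjusted p = 0.147) and stayed at 0.52 without KO5.

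The remaining costimulatory genes were Cd27 and Cd40lg, of which neither was called. Cd27, a receptor of the tumour necrosis factor family, was at 4.11, 3.45 and 3.56 CPM in WT and at 4.84, 11.1 and 5.14 CPM in KO mice, and its log2 fold change was 0.94 ± 0.33 (adjusted p = 0.133). Cd40lg, through which activated helper T cells signal to B cells, was at 0.845, 0.767 and 1.0 CPM in WT and at 0.733, 1.41 and 0.741 CPM in KO4, KO5 and KO6. For Cd40lg, KO4 and KO6 were below every WT mouse and KO5 above. Its log2 fold change was 0.19 ± 0.32 (adjusted p = 0.752) and -0.26 ± 0.28 without KO5, on 15 to 67 reads per library.

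Adhesion and surface glycoproteins of T cells were above the WT range in each KO mouse for all 5 genes. Cd6, which binds the adhesion molecule ALCAM, was at 3.54, 2.83 and 3.36 CPM in WT and at 4.35, 12.0 and 7.41 CPM in KO4, KO5 and KO6. Cd5, a related receptor that dampens signalling and is also made by some B cells, was at 2.70, 2.78 and 3.04 CPM in WT and at 3.13, 11.4 and 5.83 CPM in KO mice. Both lie on chromosome 19 within 112.9 kb, and both were far higher in KO5 and KO6 than in KO4. Their log2 fold changes were 1.30 ± 0.35 and 1.28 ± 0.43 (adjusted p = 0.0708 and 0.120). Thy1 differed less but with little spread, at 24.2, 22.5 and 23.5 CPM in WT and 27.8, 36.6 and 30.0 CPM in KO mice, and had a log2 fold change of 0.43 ± 0.11 (adjusted p = 0.060). Thy1 is not confined to T cells and is also found on fibroblasts and other lung cells. Cd2, which T and natural killer cells share, and Cd96, a receptor of both, had log2 fold changes of 0.91 ± 0.31 and 0.58 ± 0.20 (adjusted p = 0.124 and 0.130).

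Of the transcription factors, Foxp3 alone had no overlap between the groups. Foxp3, which defines regulatory T cells, was at 0.362, 0.815 and 0.679 CPM in WT (9, 17 and 21 reads) and at 1.12, 1.76 and 1.53 CPM in KO4, KO5 and KO6 (23, 84 and 31 reads). KO5 was the highest here by a small margin. The log2 fold change was 1.27 ± 0.32 (adjusted p = 0.0634), and 1.10 ± 0.37 without KO5. Foxp3 for each Cd4 read overlapped between the groups (0.0652 to 0.115 in WT, 0.0650 to 0.138 in KO). Foxp3 shares exon bases with genes on both strands, so that its few reads are uncertain.

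Tcf7 and Lef1, which naive and memory T cells use, were lowest in KO4 and highest in KO5. Tcf7 was at 43.9, 41.7 and 35.6 CPM in WT and at 30.1, 61.8 and 36.4 CPM in KO4, KO5 and KO6. Lef1 was at 7.45, 8.67 and 5.43 CPM in WT and at 3.42, 12.3 and 6.27 CPM in the KO mice. For both genes KO6 lay inside the WT range. Their log2 fold changes were 0.09 ± 0.25 and 0.06 ± 0.43 (adjusted p = 0.856 and 0.955), and -0.28 ± 0.12 and -0.57 ± 0.30 without KO5 (adjusted p = 0.204 and 0.303). Both genes are also made by other lung cells, such as natural killer cells and innate lymphoid cells for Tcf7.

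The remaining factors overlapped between the groups. Gata3, the factor of type 2 helper cells and of type 2 innate lymphoid cells, was at 17.9, 16.2 and 17.1 CPM in WT and at 22.0, 16.6 and 16.3 CPM in KO4, KO5 and KO6. It was the 1 gene for which KO5 lay inside the WT range, and KO4 was the highest. Tbx21, the factor of type 1 helper and natural killer cells, had a log2 fold change of 0.56 ± 0.26 (adjusted p = 0.232), Bcl11b, which commits cells to the T lineage, one of 0.61 ± 0.29 (adjusted p = 0.242), and Satb1, an organiser of chromatin in thymocytes, one of 0.64 ± 0.36 (adjusted p = 0.318). For Gata3 the log2 fold change was 0.10 ± 0.13 (adjusted p = 0.674). Without KO5 the values of Tbx21, Bcl11b and Satb1 were 0.33, 0.22 and 0.07.

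**Figure D3:**
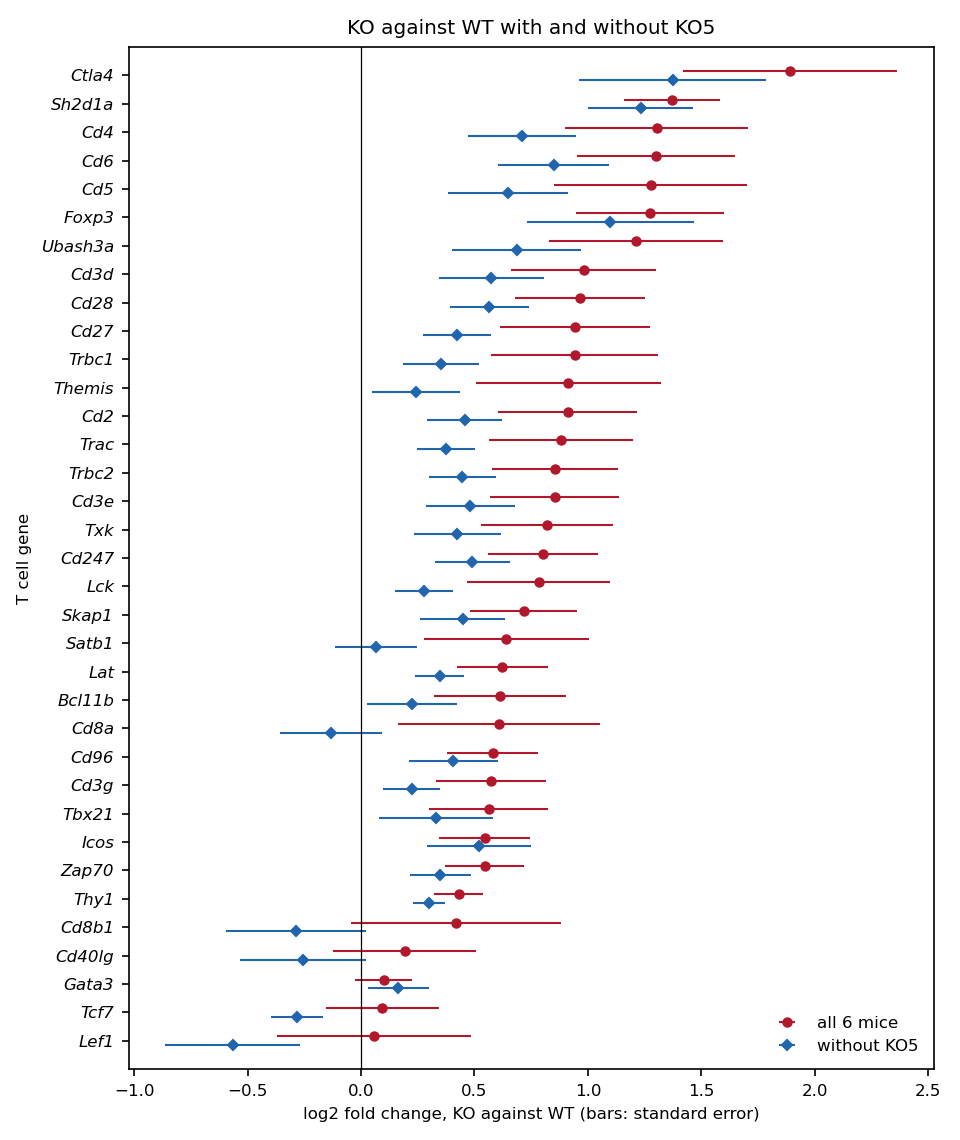
Log2 fold change of KO against WT for the 35 T cell genes with all 6 mice (circles) and without KO5 (diamonds), from the edgeR fit across all genes, with bars for the standard error and genes ordered by the value with all mice. All but Gata3 were smaller without KO5, and Cd8a, Cd8b1, Cd40lg, Tcf7 and Lef1 were then below 0, while Sh2d1a and Foxp3 moved little.

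KO5 was more than 1 log2 unit above the mean of KO4 and KO6 in 15 of the 35 genes. The excess of KO5 had a median of 0.95 and ran from -0.19 for Gata3 to 1.55 for Cd8a, where the median over all genes tested was 0.0088. Its smallest positive values were for Icos (0.10), Sh2d1a (0.33), Thy1 (0.34), Foxp3 (0.41), Cd96 (0.43) and Zap70 (0.50). The largest after Cd8a were those of Cd8b1 (1.51), Themis (1.42), Cd5 (1.41) and Lef1 (1.40). By role, the median log2 fold change without KO5 was 0.52 for costimulation and inhibition, 0.49 for the CD3 and zeta chains, 0.46 for adhesion and surface glycoproteins, 0.39 for proximal signalling, 0.37 for the receptor constant regions, 0.16 for transcription factors and -0.13 for coreceptors. With KO5 the same medians ran from 0.56 for transcription factors to 0.94 for costimulation and inhibition. KO5 also held 24 reads of 4 Y-linked genes, where WT5 held 1 and the other libraries 0, while all 6 libraries held 15033 to 47369 reads of Xist. Mitochondrial genes took 1.75 to 2.27% of reads over the 6 libraries, the lowest share in KO5. The part of these in the values of KO5 was not tested.

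Within each library the T cell genes were set against the reads of the CD3 and zeta chains, which takes out what they share with those chains. Per 100 reads of Cd3d, Cd3e, Cd3g and Cd247, 25 of the other 31 genes overlapped between WT and KO mice. In 3 of the 31 (Sh2d1a, Ctla4 and Cd6) every KO mouse was above every WT mouse, where this held for 1.37% of all genes, and in 3 (Cd40lg, Tcf7 and Lef1) every KO mouse was below, where 58.6% of all genes were. Since CD3 and zeta reads were higher in KO mice, most genes of the lung fall on this scale, and the 3 lower genes are a smaller share than in that background. Ctla4 had 2.11, 3.42 and 6.04 reads per 100 in WT and 7.45, 9.22 and 7.77 in KO4, KO5 and KO6. Tcf7 had 192, 213 and 162 in WT and 121, 118 and 110 in the KO mice, so that KO5, the highest mouse in CPM, lay beside KO4 and KO6 here. Lef1 had 32.6, 44.3 and 24.7 in WT and 13.7, 23.6 and 19.0 in KO mice, with KO5 the highest of the KO mice and close to WT6. Cd40lg had 3.70, 3.91 and 4.57 in WT and 2.94, 2.70 and 2.24 in KO mice.

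**Figure D4:**
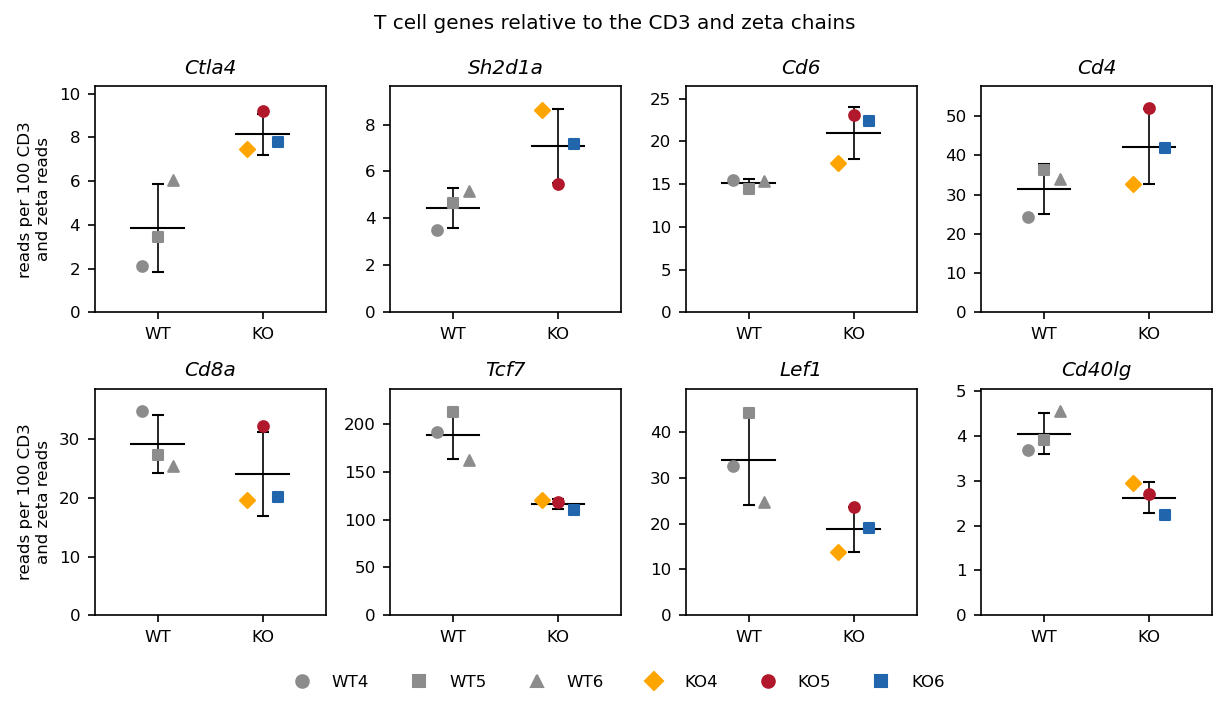
Reads of 8 T cell genes per 100 reads of the CD3 and zeta chains in the same library, with 1 symbol per mouse, a line for the mean of each group and bars for the SD (n = 3). Ctla4, Sh2d1a and Cd6 were higher in every KO mouse and Tcf7, Lef1 and Cd40lg lower, while Cd4 and Cd8a overlapped.

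Set against Cd28 instead, Ctla4 had 0.106, 0.137 and 0.270 reads for each Cd28 read in WT and 0.317, 0.354 and 0.308 in KO4, KO5 and KO6. Tcf7 had 9.65, 8.53 and 7.24 reads for each Cd28 read in WT and 5.13, 4.55 and 4.37 in KO mice. Lef1 likewise had 1.11 to 1.77 in WT and 0.583 to 0.906 in KO mice. None of these 3 ratios overlapped between the groups, while Icos to Cd28 and Gata3 to Tbx21 did. Cd28 was itself above the WT range in every KO mouse, so other genes of the lung may also fall on this scale. The share of all genes without overlap per Cd28 read was not computed, so the lower Tcf7 and Lef1 have no background here. The ratios are counts of reads in 1 library and are not corrected for gene length.

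On a scale corrected for length, as CPM per kb of exon, the T cell genes spanned a wide range in WT lungs. Tcf7 was the highest, at 15.4 ± 1.63 CPM per kb (SD, n = 3), followed by Trbc2 at 9.36 ± 1.24, Cd2 at 8.99 ± 1.84, Thy1 at 7.82 ± 0.28 and Trbc1 at 6.93 ± 1.03. Tcf7 was above Trbc2 in every WT mouse, whereas the ranges of Trbc2 and Cd2, of Cd2 and Thy1, and of Thy1 and Trbc1 overlapped. The lowest were Ubash3a at 0.093 ± 0.026, Foxp3 at 0.135 ± 0.051 and Sh2d1a at 0.172 ± 0.030 CPM per kb, whose ranges overlapped from one to the next. In all, 7 of the 34 pairs of neighbours in this order did not overlap. All 7 CD3, zeta and receptor constant region genes were detected in every library, so that T cell RNA was present in each lung, and the high place of Tcf7, Thy1 and Gata3 includes genes that other lung cells make.

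**Figure D5:**
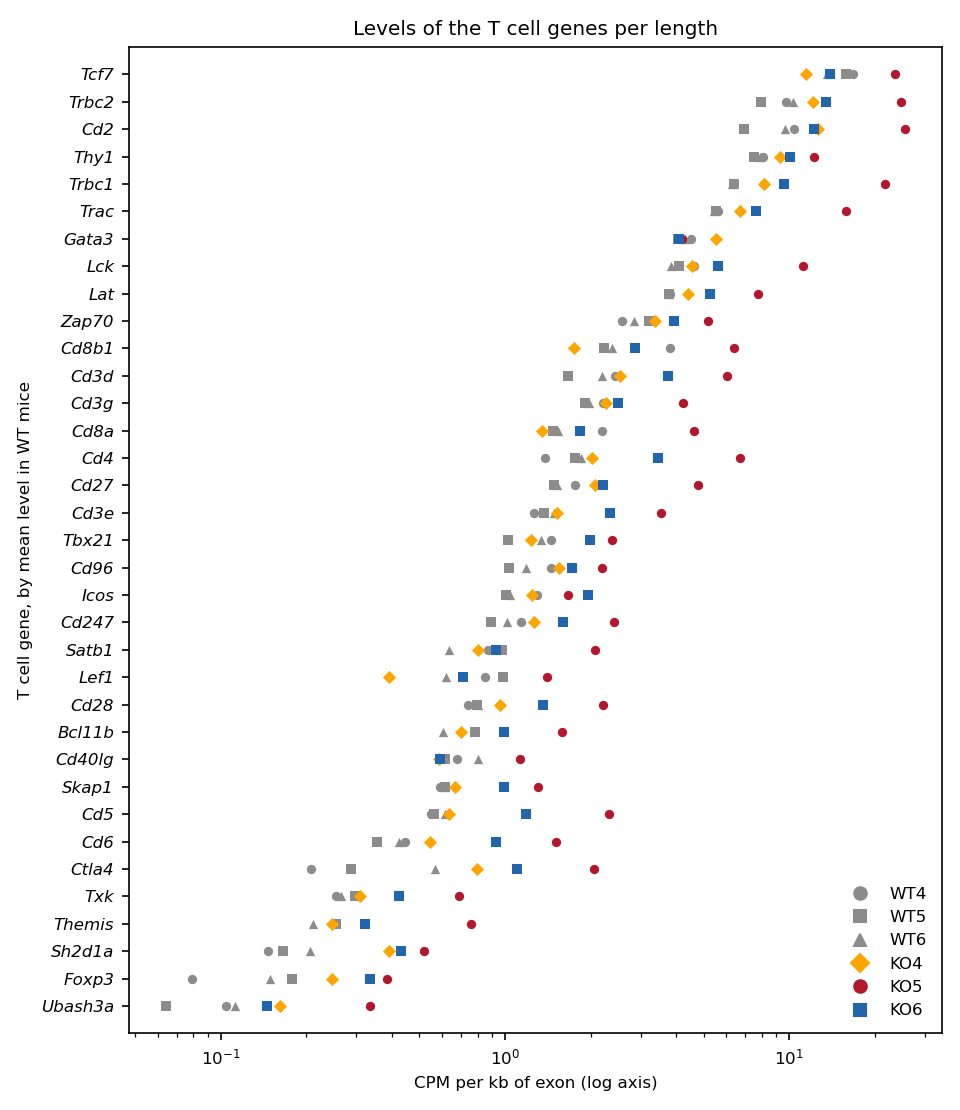
Level of each T cell gene in each mouse, as CPM per kb of exon on a log axis, ordered by the mean of the WT mice. Levels ran from Ubash3a, at a WT mean of 0.093, to Tcf7, at 15.4, and neighbouring genes mostly overlapped.

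Signalling genes outside the list are also used by many other leukocytes. Of 27 genes that act downstream of the T cell receptor, 9 rose and 0 fell, where 3.72% of all genes tested were called higher, and DESeq2 called 12 higher, the exact test 13 and limma-voom 6. Their median log2 fold change was 0.72, and without KO5 10 were called, with a median of 0.48. Fyb, an adaptor in the path to integrins, was at 18.9, 17.4 and 17.1 CPM in WT and at 37.3, 45.6 and 53.1 CPM in KO4, KO5 and KO6 (log2 fold change 1.35 ± 0.13, adjusted p = 0.0080). Lcp2, the adaptor SLP-76, Sla, which limits receptor levels, and Ptprc, the phosphatase CD45 of all leukocytes, had log2 fold changes of 1.0, 0.84 and 1.15 (adjusted p = 0.0162, 0.0212 and 0.0290). For Fyb the highest mouse was KO6, as in the monocyte list above, and myeloid cells make Fyb, Lcp2, Sla and Ptprc too. The part of those cells was not tested.

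Lists of T cell subsets and states are read against the same 3.72% of all genes. Among 18 tested genes of helper and effector subsets 2 rose, Tnfrsf4 (OX40; log2 fold change 0.81, adjusted p = 0.0390) and Cxcr3, a chemokine receptor of type 1 cells (1.05, adjusted p = 0.0390), with a median of 0.54, and DESeq2 called 5, the exact test 6 and limma-voom 2. Tnfrsf4 was at 1.37, 1.58 and 1.75 CPM in WT and at 2.69, 2.62 and 2.96 CPM in KO4, KO5 and KO6, so that KO5 was the lowest of the KO mice. All 7 tested inhibitory and activation genes had every KO mouse above every WT mouse, where 17.0% of all genes tested did. Their median was 1.24, and 2 rose, Tox (0.73, adjusted p = 0.0268) and Lag3 (1.24, adjusted p = 0.0370), while DESeq2 called 5, the exact test 6 and limma-voom 2. Without KO5 the 2 called in this list were Tox and Btla, and in the helper list 1, Cxcr5; Btla and Cxcr5, which B cells also make, were named after their values were seen. The cytokines Il2, Il4, Il5, Il10, Il13, Il17a and Ifng were too low to test, and Ifng was at 0.096 to 0.593 CPM.

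None of the 6 tested markers of naive and recirculating cells was called by the quasi-likelihood test or limma-voom, DESeq2 called 1 and the exact test 2, and at an unadjusted p of at most 0.05 there were 3 higher and 1 lower. Their median log2 fold change was 0.45. Ccr7, a chemokine receptor for entry to lymph nodes, was at 8.70, 6.52 and 5.40 CPM in WT and at 6.35, 22.6 and 9.48 CPM in KO4, KO5 and KO6, with KO4 inside the WT range (0.92 ± 0.45, adjusted p = 0.253). Il7r, the interleukin 7 receptor of resting T cells, had a log2 fold change of 0.68 ± 0.16 (adjusted p = 0.0549) with no overlap, and it was the 1 gene of the list called without KO5. Ccr7 is also made by B cells. Its highest mouse was KO5, as for the B cell list and for 33 of the 35 T cell genes, and the part of B cells in it was not tested.

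Of 5 tissue-resident markers 0 were called by edgeR, DESeq2 or limma-voom, 1 was higher at an unadjusted p of at most 0.05, and the median was 0.33. Cd69, which holds cells in tissue, had a log2 fold change of 0.99 ± 0.42 (adjusted p = 0.197). Among 7 genes of gamma-delta and innate-like T cells 0 rose and 1, Sox13, fell, and the log2 fold changes of the list ran from -1.48 to 1.22. At an unadjusted p of at most 0.05, 3 were higher and 2 lower, and DESeq2 called 1 higher and 1 lower. Sox13 was at 158, 153 and 148 CPM in WT and 127, 111 and 112 CPM in KO mice (-0.38, adjusted p = 0.0255). Sox13 is also made outside T cells. Thymocyte genes were close to absent, with 0 of 4 tested and a summed level of 0.032 to 0.357 CPM, and Rag1, the recombinase, was at 0 in 4 of the 6 mice.

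Genes that present antigen to T cells were higher as well. Of 10 MHC class II genes 5 rose, with a median log2 fold change of 0.55, among them H2-Ab1 (0.54, adjusted p = 0.0343), H2-DMa (0.52, adjusted p = 0.0414), H2-Eb1 (0.64, adjusted p = 0.0423) and H2-DMb1 (0.36, adjusted p = 0.0440). With all 6 mice, 3.72% of all genes tested were called higher, and DESeq2 called 8 of the 10, the exact test 9 and limma-voom 4. Without KO5, 5 of the 10 were called, among them H2-Ab1 and H2-Eb1, where 3.49% of all genes tested were called higher. H2-DMa and H2-DMb1 were then not called (adjusted p = 0.0695 and 0.0764). H2-Ab1 was at 345, 292 and 332 CPM in WT and at 420, 537 and 456 CPM in KO4, KO5 and KO6, so that the groups were apart and KO5 again the highest. Of 9 costimulatory and coinhibitory ligands 2 rose, Pdcd1lg2, a ligand of PD-1 (1.40, adjusted p = 0.0255), and Cd48, a ligand of the SLAM family and of Cd2 (0.95, adjusted p = 0.0303), and 1 fell, Pvr, a ligand of Cd96 (-0.35, adjusted p = 0.0286). B cells, dendritic cells and macrophages make class II molecules, and the part of each was not tested.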

How the data were processed

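The authors extracted RNA with Trizol and RNeasy and made stranded TruSeq mRNA libraries. Per the submitters' processing notes, Trimmomatic 0.36, STAR 2.5.3a, Picard 2.9.0 and HTSeq 0.6.0 were used, and reads were aligned to GRCm38 in the GenPipes pipeline. The values the authors deposited are raw counts per gene, without normalization. The annotation release and the strand setting of the counting are not given in the sources used here. Coordinates and exon lengths were taken from GENCODE mouse release 21 (GRCm38), which placed 46574 of 47069 genes.

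Counts were filtered with filterByExpr (minimum count 10, minimum total 15), scaled by TMM and tested with edgeR 4.0.16 (quasi-likelihood, R 4.3.3) for KO against WT over all genes, with Benjamini-Hochberg adjustment and a threshold of 0.05. SE is the size of the log2 fold change divided by the square root of F. CPM are counts scaled to the TMM-adjusted library size, and log2 CPM used a pseudocount of 0.5 count. A count of 3 corresponds to 0.0629 to 0.148 CPM. DESeq2 1.42.0 and limma 3.58.1 served as alternatives, and the scripts were tested on simulated data. Same-numbered WT and KO mice did not deviate together (r = -0.029, -0.149 and -0.022), so the numbers were not taken to pair them.

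The 35 genes, the lists and the tests were chosen with earlier results of these data known, so the lists were described by counts and medians without a test over a list. All 35 members were named. Of the other lists, genes called at the threshold were named, at most the 4 with the lowest p per list and direction, and Ccr7, Il7r, Cd69, Ifng and Rag1, with some genes of the rule not reported here. Libraries from ZT7 were not analysed here.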

Additional observations from a re-analysis of the deposited data

How the results depend on the processing

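The number of T cell genes called higher was 1 in the fit as reported and moved to 2 with upper-quartile factors, 4 without a filter on low counts, 7 by the edgeR exact test, 17 by DESeq2 and 0 when a log2 fold change of at least 1.5 was also asked for, while leaving out 1 mouse at a time gave 0 to 12. With the replicate number as a block 0 were called, at a median log2 fold change of 0.74, and 66 of all genes tested were called in place of 1089; Sh2d1a then had an adjusted p of 0.0729. The numbers do not pair the mice, and the cause of the lower count was not tested. DESeq2 size factors, limma-voom, removal of immunoglobulin genes and a minimum of 10 counts in every library, which left 34 of the 35 genes, each gave 1. None was called lower under any of these settings. The median log2 fold change ran from 0.41 to 1.02 over the fits that left out 1 mouse. Over the same fits the log2 fold change ran from -0.13 to 0.91 for Cd8a, -0.29 to 0.74 for Cd8b1, -0.26 to 0.34 for Cd40lg, -0.28 to 0.29 for Tcf7 and -0.57 to 0.39 for Lef1, each lowest without KO5, and from -0.053 (without KO4) to 0.17 for Gata3. Lef1 was also negative with the block (-0.10) and without WT6 (-0.12). Over 15 alternative settings, 474 of 524 values of single T cell genes kept their direction and their side of the threshold, 37 became called, 5 stopped being called and 8 turned. Depth limits Foxp3, Ctla4, Cd40lg, Sh2d1a and Ubash3a, which had 9 to 41 reads in the WT libraries.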

Other observations

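The variable segments of the T cell receptor are spread over many genes with few reads each. Of 175 segments 7 were tested, 0 were called by edgeR, DESeq2 or limma-voom, 1 was higher at an unadjusted p of at most 0.05, and the median log2 fold change was 0.46. Alpha segments (Trav) held 32, 34 and 49 reads in WT4, WT5 and WT6 and 37, 256 and 63 in KO4, KO5 and KO6, which is 1.29 to 1.63 CPM in WT and 1.81, 5.37 and 3.11 CPM in the KO mice. Beta segments (Trbv) held 124, 82 and 148 reads in WT and 123, 681 and 132 in KO mice. In KO5 these beta reads were spread over 21 segments, the most used of which (Trbv29) took 9.84% of them, while in KO4 Trbv16 took 19.5% of 123 reads. Over the WT mice the most used beta segment took 10.8 to 14.5%. Segments of this kind share sequence, so their counts are uncertain.

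As sums, reads of gamma and delta segments did not show the excess of KO5. Delta segments (Trdv) were at 0.765, 0.815 and 1.13 CPM in WT and at 1.03, 1.01 and 1.63 CPM in KO4, KO5 and KO6, and Trgv2 was at 0.644, 0.383 and 0.647 CPM in WT and at 0.929, 0.566 and 0.938 CPM in the KO mice. Trdv4 held 28 of the 48 delta reads in KO5 (58.3%) and 89.5 to 97.1% of them in each other library. Delta segments other than Trdv4 thus held a larger share in KO5. No test was made of these sums or shares.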
